A study of Mus musculus with 15 samples.

Results

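Collagen chain genes were taken as every gene whose symbol has the form Col, a number, the letter a and a number, and which is listed in the expression tables of both mouse tumour lines. The rule found 44 genes, out of 54343 entries in the MC38 table and 55303 in the B16-F10 table. By textbook class, 11 encode fibrillar chains, 8 encode basement membrane chains and 3 encode short-chain network collagens. A further 6 encode type VI chains, 9 encode fibril-associated collagens, 4 encode transmembrane collagens and 3 belong to none of these classes.

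Collagens are extracellular proteins in which alpha chains wind around each other in a triple helix. Fibrillar collagens form the cables of connective tissue, type IV chains form the mesh of basement membranes, type VI chains form beaded microfilaments, and fibril-associated collagens sit on the surface of fibrils. Chains of the same type must be made together for a heterotrimer to fold, and enzymes of the endoplasmic reticulum hydroxylate and glycosylate them before export. In tumours fibroblasts make most of the collagen, and cancer cells can add chains of their own.

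The samples were 15 libraries of polyadenylated RNA from cultured cells, 7 of MC38, a mouse colon adenocarcinoma line, and 8 of B16-F10, a mouse melanoma line. The 4 wild-type MC38 libraries were compared with 3 libraries of MC38 cells stably transduced with a retroviral vector that carries murine Ssbp4 and, after an internal ribosome entry site, EGFP. Wild-type MC38 served as control, and no MC38 group with the empty vector is named in the labels. Differences due to Ssbp4 and those due to transduction with the vector therefore cannot be told apart. The 4 B16-F10 libraries labelled wild type were compared with 4 labelled knockout. Per the protocol, B16-F10 cells were electroporated with Cas9 and either a mixture of guide RNAs against Ssbp4 or a control guide against an intergenic region of chromosome 2, and no cloning step is described. Both lines are mouse tumour cells grown in the same kind of medium with serum, without stromal or immune cells added. Whether the replicates of a group are separate cultures is not stated, and p-values therefore cover the variation among the sequenced libraries, part of which may be technical. The protein encoded by Ssbp4 binds single-stranded DNA.

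Levels are FPKM, the number of fragments scaled to gene length and to the mapped fragments of the library, so that levels of different chains can be compared. Estimated depth was 32.2 to 48.3 M fragments per library. Ssbp4 was at 13.2 to 17.6 FPKM in wild-type MC38 and 462 to 581 FPKM in overexpressing cells. In B16-F10 it was at 34.5 ± 2.37 FPKM in wild type and 22.1 ± 2.29 FPKM in knockout (SD, n = 4 each), and the groups did not overlap in either line. Melanoma is the labelled tissue of both lines. The summed level of 8 melanocyte markers was 11140 to 14414 FPKM in the B16-F10 libraries and 0.902 to 2.09 FPKM in the MC38 libraries, where Mlana and Oca2 were at 0 in every library. Of 9 epithelial markers, Krt8 and Krt18 alone exceeded a mean of 1 FPKM in wild-type MC38 and Krt8 alone in overexpressing cells, and Cdx2, an intestinal transcription factor, was at 0 in every library. Of 7 leukocyte markers Cd68 alone exceeded a mean of 1 FPKM, in each of the 4 groups (2.02 to 3.52 FPKM), and Cd3e was at 0 in every library. Of 5 endothelial markers Egfl7 alone exceeded that mean, also in each group. On the first principal component of all tested genes, wild-type B16-F10 libraries 1 and 2 stood at 9.42 and 10.3, and libraries 3 and 4 both at -17.8, with the knockout libraries between 1.91 and 7.81. B16-F10 results are therefore given with all libraries and with either pair of wild-type libraries left out.

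The summed collagen level was higher in MC38 than in B16-F10. Most chains above 1 FPKM in either wild type were below it in the other. The levels of all 44 chains summed to 357 ± 20.6 FPKM (SD, n = 4) in wild-type MC38, 0.0706% of all FPKM, and to 56.7 ± 4.42 FPKM (SD, n = 4) in wild-type B16-F10, 0.0114% of all FPKM. The tables of the lines were made separately, so these levels stand side by side without a test. A mean above 1 FPKM was reached by 11 chains in wild-type MC38 and by 12 in wild-type B16-F10. Only 4 chains passed this level in both, Col4a1 and Col4a2, the ubiquitous basement membrane pair, Col5a1, a chain of the type V collagen that starts fibrils, and Col16a1, a fibril-associated chain. These were 36.4% of the MC38 chains and 33.3% of the B16-F10 chains. By level, Col16a1, Col4a1, Col5a1 and Col4a2 were at means of 61.4, 41.8, 35.4 and 26.3 FPKM in wild-type MC38. In wild-type B16-F10 they were at 15.97, 3.09, 4.26 and 3.30 FPKM, so the shared chains carried a large part of both sums. Col16a1 was among the 3 leading chains of both wild types.

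In wild-type MC38 the leading chain was Col3a1, which forms the homotrimer of type III fibrils in distensible tissue, at 100, 104, 93.1 and 98.1 FPKM in the 4 libraries. It made up 27.7% of the collagen sum. Col16a1 followed at a mean of 61.4 FPKM, Col4a1 at 41.8, Col5a1 at 35.4, Col6a3 at 34.1, Col4a2 at 26.3 and Col6a1 at 25.3. The lower chains were Col8a1, a short-chain network collagen, at 10.2 FPKM, Col7a1, the anchoring fibril chain of skin, at 9.03, Col5a2 at 7.06 and Col6a2 at 4.71. All 11 exceeded 1 FPKM in every wild-type library, and the nearest chain below the level was Col27a1 at 0.881 ± 0.0345 FPKM. Neighbours in this order whose ranges overlapped were Col5a1 (32.5 to 38.6 FPKM) and Col6a3 (29.2 to 39.7 FPKM), and Col4a2 (23.9 to 28.5 FPKM) and Col6a1 (24.6 to 25.8 FPKM). In each of these pairs the order changed between libraries. The ranges of Col8a1 (9.64 to 10.5 FPKM) and Col7a1 (8.37 to 9.77 FPKM) also overlapped, but Col8a1 was the higher in every wild-type library. Col4a1, at 37.9 to 45.0 FPKM, overlapped in range with Col5a1 and Col6a3 but lay above both in every wild-type library.

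In wild-type B16-F10 no fibrillar chain dominated. Col16a1 led at 16.6, 18.8, 14.3 and 14.1 FPKM, and Col15a1, a basement membrane zone collagen, followed at 7.91, 8.81, 5.70 and 5.82 FPKM. The next 6 chains, Col5a1, Col4a5, Col4a2, Col5a3, Col4a1 and Col1a2, had means between 3.08 and 4.26 FPKM, and their ranges over libraries overlapped. Col27a1 stood at a mean of 2.73 FPKM, Col11a2, a minor cartilage chain, at 2.44, Col9a3 at 1.56 and Col4a4 at 1.13. Of these 12 chains 10 exceeded 1 FPKM in every wild-type library, whereas Col9a3 and Col4a4 fell below it in at least 1 library. The nearest chain below the level was Col20a1 at 0.894 ± 0.441 FPKM, with wild-type values of 1.20, 1.32, 0.387 and 0.668 FPKM.

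The 7 chains above 1 FPKM in wild-type MC38 alone were Col3a1, Col5a2, Col6a1, Col6a2, Col6a3, Col7a1 and Col8a1. In B16-F10 Col5a2 and Col6a2 were listed at 0 in all 8 libraries, Col6a1 and Col6a3 did not exceed 0.0062 FPKM, and Col3a1 did not exceed 0.0044 FPKM except in wild-type library 4, at 0.166 FPKM. The type VI class thus summed to 64.1 ± 5.63 FPKM in wild-type MC38 and 0.00355 ± 0.00529 FPKM in wild-type B16-F10 (SD, n = 4 each). The 8 chains above the level in B16-F10 alone were Col1a2, Col4a4, Col4a5, Col5a3, Col9a3, Col11a2, Col15a1 and Col27a1. Col15a1 was at a mean of 0.0159 FPKM and Col4a5, the X-linked chain mutated in human Alport syndrome, at 0.0104 FPKM in wild-type MC38.

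The remaining 25 chains stayed at or below a mean of 1 FPKM in both wild types. Among them was Col1a1, the partner of Col1a2 in type I collagen, at 0.0627 ± 0.0256 FPKM in MC38 and 0.329 ± 0.0852 FPKM in B16-F10. Col1a2 itself was at 0.392 ± 0.0798 FPKM in MC38 and 3.08 ± 0.706 FPKM in B16-F10. The mRNA level of Col1a1 was thus below that of Col1a2 in both lines, but only Col1a2 in B16-F10 exceeded 1 FPKM. At 0 in every library of the group were 6 of the 44 chains in wild-type MC38 and 9 in wild-type B16-F10.

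**Figure D1:**
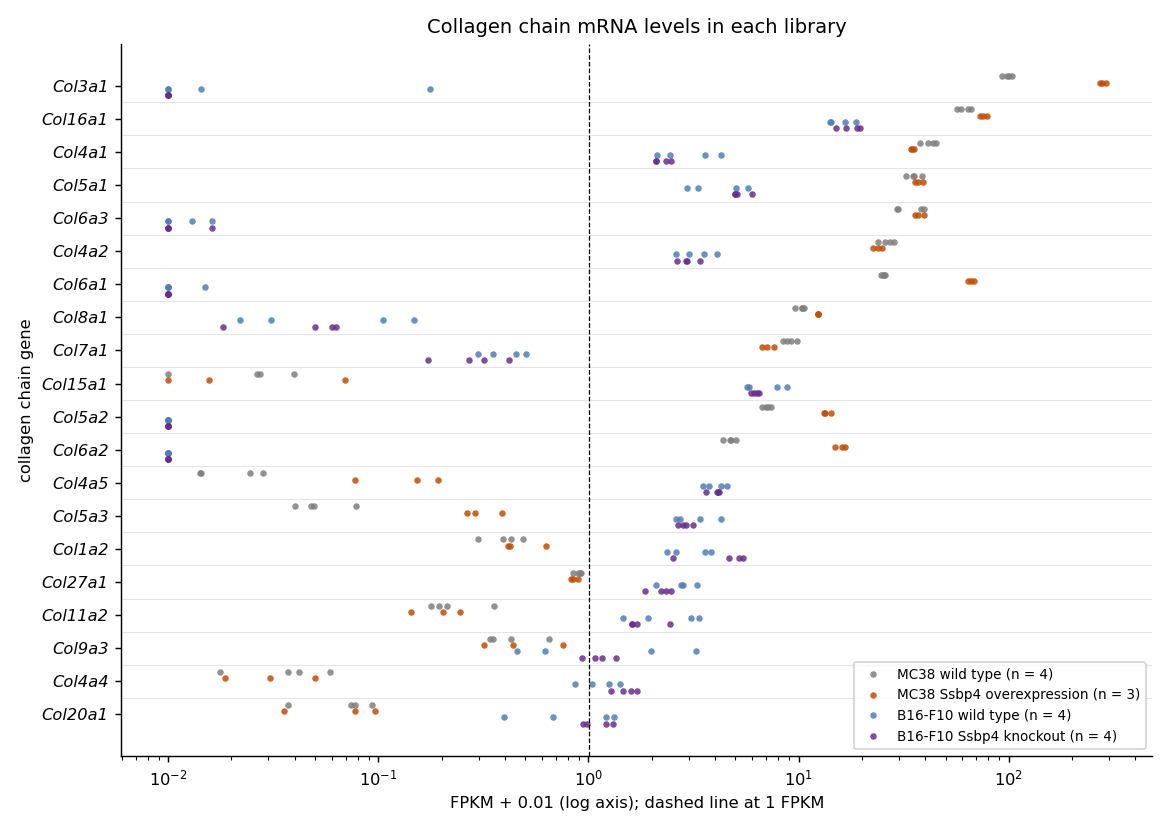
FPKM + 0.01 on a log axis for the 20 chains whose mean exceeded 1 FPKM in any of the 4 groups, with 1 point per library and a dashed line at 1 FPKM. Points at the left edge are libraries listed at 0, and the type VI chains Col6a1, Col6a2 and Col6a3 lie at the right in MC38 and at the left edge or close to it in B16-F10.

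The first comparison set the collagen chains of Ssbp4-overexpressing MC38 cells against those of wild type. Of the 11 chains that passed the filter of a mean of 1 FPKM, 6 were higher, 2 were lower and 3 did not pass an adjusted p of 0.05 in limma. Over all 10748 genes tested 47.5% passed, 23.9% higher and 23.6% lower, so a call for a single chain is not unusual in this comparison. The groups did not overlap for the same 8 chains, 6 of them higher and 2 lower, where 50.6% of all genes tested had groups without overlap, 25.5% higher and 25.1% lower. The median log2 fold change was 0.25 over the 11 chains and -0.01 over all genes tested. All 11 also exceeded 1 FPKM in wild type, so none entered the test through the overexpressing group alone. The summed level of the 44 chains was 362, 381, 331 and 353 FPKM in wild type and 609, 597 and 617 FPKM with overexpression, and the groups did not overlap.

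Among tested fibrillar chains Col3a1 had the highest log2 fold change. It rose from 98.8 ± 4.48 FPKM (SD, n = 4) to 277, 272 and 289 FPKM with overexpression (log2 fold change 1.49, SE 0.04, 95% interval 1.40 to 1.58, adjusted p = 3.23e-09). Wild-type libraries lay between 93.1 and 104 FPKM, far below the overexpressing ones. Col5a2, which joins Col5a1 in type V collagen, rose from 7.17, 7.37, 6.67 and 7.02 FPKM to 13.2, 13.4 and 14.2 FPKM (log2 fold change 0.86, SE 0.05, adjusted p = 6.94e-07). Its partner Col5a1 was at 35.6, 38.6, 32.5 and 34.8 FPKM in wild type and 39.2, 37.1 and 35.7 FPKM with overexpression. These groups overlapped, and the log2 fold change was 0.08 (95% interval -0.05 to 0.21, adjusted p = 0.287). The ratio of Col5a2 to Col5a1 went from 0.200 ± 0.00634 to 0.366 ± 0.0314 (SD, n = 4 and 3), with no overlap between the groups. Col3a1 and Col5a2, which both rose, lie next to each other on chromosome 1 with no protein-coding gene between them, and the part of gene position was not tested.

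All 3 type VI chains that were expressed were at higher means with overexpression, but only 2 passed the test. Col6a1 rose from 25.4, 25.8, 25.3 and 24.6 FPKM to 64.2, 68.0 and 65.9 FPKM (log2 fold change 1.35, SE 0.04, adjusted p = 2.69e-09). Col6a2 rose from 4.34, 4.71, 4.74 and 5.04 FPKM to 16.6, 16.1 and 15.0 FPKM (log2 fold change 1.57, SE 0.06, adjusted p = 3.03e-08). In both genes every overexpressing library lay above every wild-type library. Col6a3, the large chain that completes the heterotrimer, was at 39.7, 38.0, 29.2 and 29.6 FPKM in wild type and 39.5, 35.8 and 37.0 FPKM with overexpression, a log2 fold change of 0.14 (95% interval -0.09 to 0.37, adjusted p = 0.284). Wild-type libraries 1 and 2 were as high as the overexpressing ones for Col6a3, and libraries 3 and 4 were lower. Col6a1 was below Col6a3 in every wild-type library and above it in every overexpressing library. Col6a1 and Col6a2 are neighbours on chromosome 10, and Col6a3 is on chromosome 1. Col4a1 and Col4a2 are neighbours too, on chromosome 8, and of these only Col4a1 passed the test, as lower. The part of gene position was not tested. The ratio of Col6a2 to Col6a1 went from 0.186 ± 0.0144 to 0.241 ± 0.0165 (SD, n = 4 and 3).

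**Figure D2:**
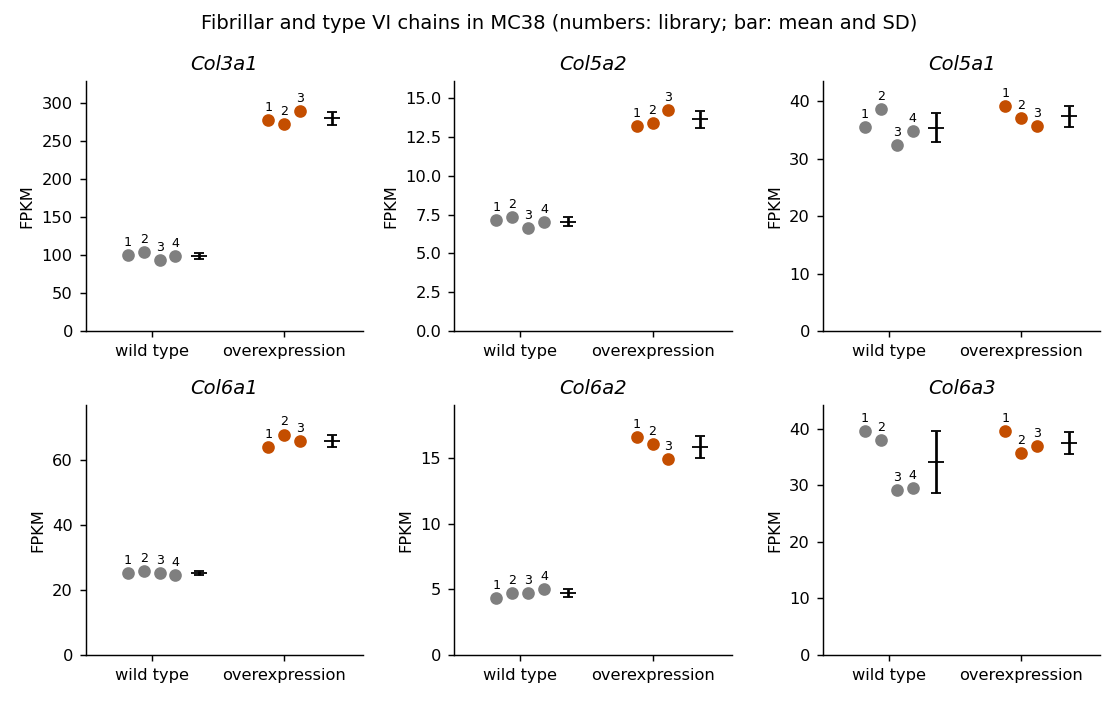
FPKM of 6 fibrillar and type VI chains in MC38, with 1 point per library (numbered) and a bar for the mean and SD of wild type (n = 4) and overexpression (n = 3). Col3a1, Col5a2, Col6a1 and Col6a2 separate into non-overlapping groups, while the groups overlap for their partner chains Col5a1 and Col6a3.

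The promoter windows of Col3a1, Col6a1 and Col6a2 are shown because all 3 rose and had the highest log2 fold changes of FPKM + 1 among the 11 tested chains. Each window runs from 250 bases before to 50 bases after the RefSeq start site, on GRCm38.p6, which precedes the GRCm39 build of the submitters, 5′ to 3′ on the strand of the gene. Capitals mark matches on either strand to the letters TATAAA of the TATA box, to CCAAT, or to GGGCGG of the GC box. Positions of matches are those of the leftmost base, counted from 0 at the start site. For Col3a1 the window is chr1:45311288-45311587 on the plus strand, for Col6a1 chr10:76725995-76726294 on the minus strand, and for Col6a2, at the outermost of its listed starts, chr10:76623581-76623880 on the minus strand.
Col3a1: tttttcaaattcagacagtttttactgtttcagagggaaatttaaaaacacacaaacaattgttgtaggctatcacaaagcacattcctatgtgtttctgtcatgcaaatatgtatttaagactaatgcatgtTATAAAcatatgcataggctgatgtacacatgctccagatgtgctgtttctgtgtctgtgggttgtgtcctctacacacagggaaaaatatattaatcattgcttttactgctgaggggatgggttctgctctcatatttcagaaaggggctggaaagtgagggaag
Col6a1: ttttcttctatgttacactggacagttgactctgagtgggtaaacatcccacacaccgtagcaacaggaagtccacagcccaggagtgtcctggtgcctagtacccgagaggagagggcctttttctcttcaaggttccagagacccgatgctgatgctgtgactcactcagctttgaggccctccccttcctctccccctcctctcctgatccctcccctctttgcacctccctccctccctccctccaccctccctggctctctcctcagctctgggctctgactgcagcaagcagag
Col6a2: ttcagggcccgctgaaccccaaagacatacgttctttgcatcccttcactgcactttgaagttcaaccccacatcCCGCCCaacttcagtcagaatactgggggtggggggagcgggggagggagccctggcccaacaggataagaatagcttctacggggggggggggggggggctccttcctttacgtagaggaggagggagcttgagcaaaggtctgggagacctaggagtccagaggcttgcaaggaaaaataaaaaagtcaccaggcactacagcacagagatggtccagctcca
The Col3a1 window held TATAAA at position -117, the Col6a2 window held the reverse complement of GGGCGG at position -175, and the Col6a1 window held none of these motifs. They shared none of these matches. Of 32851 RefSeq promoter windows of the same length, 13.6% held TATAAA, 37.4% CCAAT and 35.7% GGGCGG. A match is a run of letters and not a measured binding site.

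Both fibril-associated and short-chain network chains that were expressed rose by a small amount. Col16a1 rose from 59.0, 66.3, 56.5 and 63.8 FPKM to 75.2, 72.8 and 78.6 FPKM (log2 fold change 0.30, SE 0.05, adjusted p = 0.00147). Col8a1 rose from 9.64, 10.3, 10.4 and 10.5 FPKM to 12.4, 12.4 and 12.3 FPKM (log2 fold change 0.25, SE 0.05, adjusted p = 0.00146). Neither pair of groups overlapped.

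The chains that fell were Col4a1 of the basement membrane and Col7a1 of anchoring fibrils. Col4a1 fell from 43.3, 45.0, 37.9 and 41.1 FPKM to 34.1, 34.5 and 35.3 FPKM (log2 fold change -0.26, SE 0.05, adjusted p = 0.00274), without overlap. Col4a2 was at 25.9, 28.5, 23.9 and 27.1 FPKM in wild type and 25.0, 22.6 and 23.9 FPKM with overexpression, a log2 fold change of -0.14 (95% interval -0.27 to -0.0035, adjusted p = 0.0848). Its adjusted p became 0.0222 without wild-type library 3 and lay between 0.0728 and 0.261 without any other library. The ratio of Col4a2 to Col4a1 ranged from 0.597 to 0.658 in wild type and from 0.655 to 0.732 with overexpression, and these ranges overlapped. Col7a1 fell from 9.17, 9.77, 8.37 and 8.82 FPKM to 7.65, 7.08 and 6.71 FPKM (log2 fold change -0.30, SE 0.06, adjusted p = 0.00326). As a class, basement membrane chains summed to 68.7 ± 4.83 FPKM in wild type and 59.3 ± 1.06 FPKM with overexpression (SD, n = 4 and 3). Their share of the collagen sum was 19.2% and 9.76%, while that sum itself went from a mean of 357 to 608 FPKM. Fibrillar chains made up 40.0% and 54.7%. Col3a1 alone made up 27.7% and 45.99%, so the other fibrillar chains together had a smaller share of the sum with overexpression.

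Col4a1 and Col4a2 lie head to head on opposite strands of chromosome 8, and by their RefSeq start sites the first 22 bases of the transcripts overlap, so their windows are shown for that layout. On GRCm38.p6 the Col4a1 window is chr8:11312777-11313076 on the minus strand and the Col4a2 window chr8:11312555-11312854 on the plus strand. Capitals mark the 78 bases that both windows contain, as reverse complements of each other.
Col4a1: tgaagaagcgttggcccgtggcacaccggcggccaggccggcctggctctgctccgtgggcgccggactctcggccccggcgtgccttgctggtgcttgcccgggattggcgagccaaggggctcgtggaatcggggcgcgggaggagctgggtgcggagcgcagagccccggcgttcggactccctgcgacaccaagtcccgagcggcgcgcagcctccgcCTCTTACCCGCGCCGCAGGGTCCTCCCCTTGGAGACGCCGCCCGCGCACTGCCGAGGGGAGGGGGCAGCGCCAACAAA
Col4a2: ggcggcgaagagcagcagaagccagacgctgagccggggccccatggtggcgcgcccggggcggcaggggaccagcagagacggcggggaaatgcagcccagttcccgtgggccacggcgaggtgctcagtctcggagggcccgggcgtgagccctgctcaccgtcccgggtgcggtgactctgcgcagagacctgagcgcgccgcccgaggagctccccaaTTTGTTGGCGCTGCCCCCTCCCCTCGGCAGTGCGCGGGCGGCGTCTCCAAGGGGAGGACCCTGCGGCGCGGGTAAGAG

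**Figure D3:**
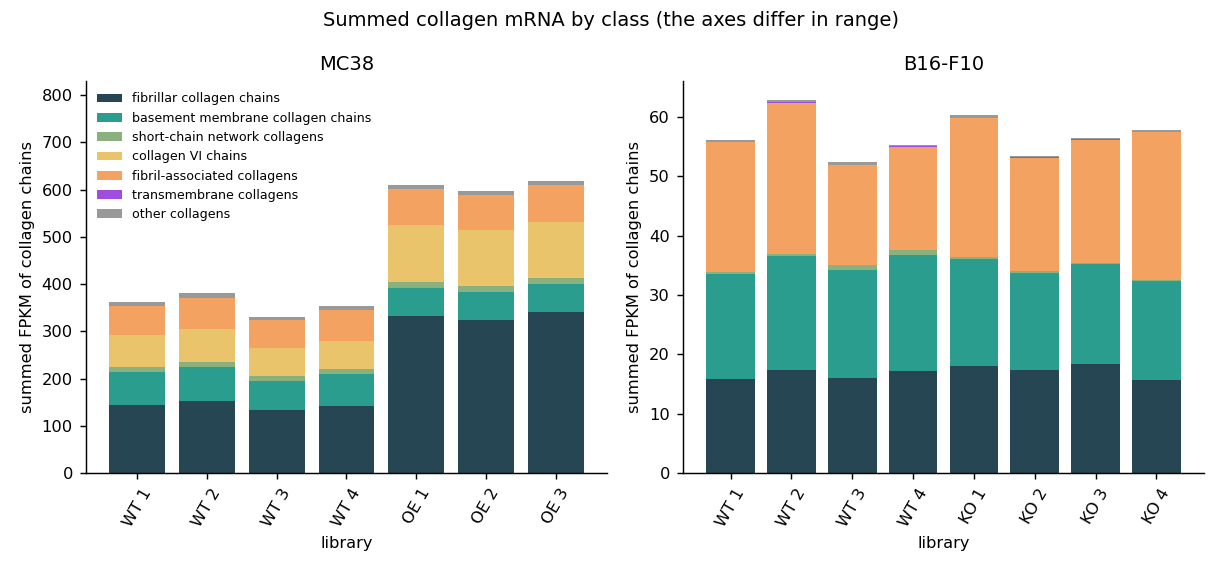
Stacked bars of summed FPKM of collagen chains by class in each library, with different vertical ranges for MC38 (left) and B16-F10 (right). Fibrillar chains, mainly Col3a1, and type VI chains account for most of the added height of the overexpression bars in MC38. The B16-F10 bars lie between 52.5 and 62.9 FPKM in both groups.

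Low chains did not enter the test. In 7 of them every overexpressing library lay above every wild-type library, namely Col1a1, Col4a5, Col5a3, Col11a1, Col12a1, Col18a1 and Col22a1, and in 0 every one lay below. These were 7 of 32 untested chains above 0 in any library, where 6.85% of all such untested genes were higher without overlap and 3.46% lower. Col12a1, a fibril-associated chain, was at 0.189, 0.118, 0.103 and 0.117 FPKM in wild type and 0.586, 0.669 and 0.602 FPKM with overexpression. Col5a3, the least common type V chain, was at a mean of 0.0439 FPKM in wild type and 0.302 FPKM with overexpression. The ratio of group means was 6.89 for Col5a3 and 4.70 for Col12a1, above that of any tested chain, at levels below 1 FPKM. Col1a1 was at a mean of 0.0627 FPKM in wild type and 0.178 FPKM with overexpression, still below 1. Without the filter on low values these 7 also passed, so that 13 chains were higher and 2 lower of 43 tested, where 21% of all genes passed, 11.5% higher and 9.47% lower. With a filter of 0.1 FPKM 8 of 19 were higher and 2 lower, where 38.7% of all genes passed, 20.3% higher and 18.4% lower.

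Genes that fold, export, mature, bind or degrade collagen were also examined in MC38. Over 3 lists of 63 such genes, 41 were tested, 20 were higher and 5 were lower, where 23.9% of all genes tested were higher and 23.6% lower. Among the 37 that averaged at least 1 FPKM in both groups, a restriction chosen after seeing the data, 17 were higher and 5 lower, where 23.3% of all such genes were higher and 23.7% lower. In the folding and export list 21 genes were tested, 11 higher and 3 lower, with a median log2 fold change of 0.16 against -0.01 over all genes tested, and the same counts with at least 1 FPKM in both groups. P4ha2, a subunit of collagen prolyl 4-hydroxylase, rose from 17.1 ± 0.642 to 33.2 ± 1.42 FPKM (log2 fold change 0.92, adjusted p = 1.52e-07). Fkbp14, a prolyl isomerase of the endoplasmic reticulum, rose from 2.17 ± 0.0478 to 4.94 ± 0.117 FPKM (0.90, adjusted p = 1.05e-06). Plod2, the lysyl hydroxylase of collagen telopeptides, rose from 22.6 ± 1.21 to 38.2 ± 1.13 FPKM (0.73, adjusted p = 1.13e-06). The lower genes were Mia2, an export receptor gene of the same family as Mia3, from 41.2 ± 1.83 to 33.2 ± 1.09 FPKM (-0.30, adjusted p = 0.000291), Colgalt1, a collagen galactosyltransferase (-0.15, adjusted p = 0.0104), and Crtap, a cofactor of prolyl 3-hydroxylation (-0.09, adjusted p = 0.0339). Colgalt1 no longer passed without overexpressing library 2 (adjusted p = 0.0503), and Crtap no longer passed in 6 of 7 fits that left out 1 library. Serpinh1, the collagen chaperone Hsp47, chosen here after its values were seen, was at 506 ± 34.8 and 491 ± 19.3 FPKM (adjusted p = 0.559).

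In the maturation and fibril partner list 12 genes were tested, 4 higher and 2 lower, with a median log2 fold change of 0.0045. Over all genes tested 23.9% were higher and 23.6% lower. With at least 1 FPKM in both groups, which leaves out Bgn, Lum and the lysyl oxidase family member Loxl3 (from 0.916 to 1.37 FPKM), 2 were higher and 2 lower of 9. These counts lie near the shares of all such genes, 23.3% higher and 23.7% lower. Dcn, the proteoglycan decorin that coats fibrils, rose from 65.6 ± 2.61 to 320 ± 2.49 FPKM (2.27, adjusted p = 2.91e-10), above any collagen chain in the overexpressing cells. Lum, the related proteoglycan lumican, rose from 0.219 ± 0.0787 to 2.19 ± 0.347 FPKM (1.39, adjusted p = 1.89e-06). Pxdn, peroxidasin, which crosslinks type IV collagen, rose from 44.4 ± 3.01 FPKM to between 59.3 and 61.3 FPKM (0.43, adjusted p = 7.9e-05). The lower genes were Pcolce, an enhancer of procollagen C-proteinase, from 126 ± 8.49 to 97.8 ± 0.747 FPKM (-0.36, adjusted p = 0.000203), and Sparc, a collagen-binding matrix glycoprotein, from 262 ± 10.8 to 229 ± 6.79 FPKM (-0.19, adjusted p = 0.00275). In the receptor and turnover list 8 genes were tested, 5 higher and 0 lower, and without Itga2 4 were higher of 7, where, as above, 23.3% of all such genes were higher. Itga2, the alpha subunit of a collagen-binding integrin, went from 0.913 ± 0.0954 to 3.98 ± 0.362 FPKM (1.38, adjusted p = 4.3e-07). Like Lum and Loxl3, it averaged below 1 FPKM in wild type and entered the test only through the overexpressing group. Mmp9, a gelatinase, rose from 8.54 ± 0.297 to 17.4 ± 0.36 FPKM (0.95, adjusted p = 1.35e-07), and Mrc2, a collagen uptake receptor, rose from 15.8 ± 1.64 to 23.4 ± 0.964 FPKM (0.54, adjusted p = 0.000148).

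Several markers of fibroblasts and pericytes were also at higher levels with overexpression. The summed level of 9 such markers, 2 of which (Dcn and Lum) are also fibril partners above, was 88.4 to 93.4 FPKM in wild type and 407 to 417 FPKM with overexpression. Dcn alone was at means of 65.6 and 320 FPKM, the largest part of this sum in both groups. Means above 1 FPKM were found for 3 of the 9 in wild type and 6 of the 9 with overexpression. Pdgfra, a growth factor receptor of fibroblasts, was at a mean of 17.6 FPKM in wild type and 66.1 FPKM with overexpression. In the same order, Cspg4 was at means of 6.26 and 13.8 FPKM, Pdgfrb at 0.424 and 1.88 FPKM, and Rgs5 at 0.230 and 9.19 FPKM. Thy1 was at 0 in wild type and at a mean of 0.00497 FPKM with overexpression, and Fap did not exceed a mean of 0.0431 FPKM in either group. Acta2 was at means of 0.0889 and 0.102 FPKM. Epithelial markers moved as well. Krt18 went from a mean of 3.23 to 0.0607 FPKM, Epcam from 0.846 FPKM to 0 in every library, and Cdh1 from 0.306 to 0.0333 FPKM, whereas Krt8 went from 3.22 to 9.45 FPKM. The sum of the 9 epithelial markers was 6.80 to 9.06 FPKM in wild type and 9.01 to 10.8 FPKM with overexpression. In bulk RNA a change in the make-up of the culture and a change in RNA per cell cannot be told apart, and the part of these markers in the collagen result was not tested.

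The second comparison asked which collagen chains differed between B16-F10 knockout and wild-type cells. None of the 12 chains tested passed an adjusted p of 0.05 in limma, where 2.23% of all 10902 genes tested did, 1.33% higher and 0.899% lower. At an unadjusted p under 0.05 in limma, 1 of the 12 chains (Col4a4) passed, and 2325 of all 10902 genes tested, a larger share. The median log2 fold change was -0.11 over the 12 chains and 0.02 over all genes tested. The sum of the 44 chains was 56.7 ± 4.42 FPKM in wild type and 57.0 ± 2.85 FPKM in knockout (SD, n = 4 each).

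**Figure D4:**
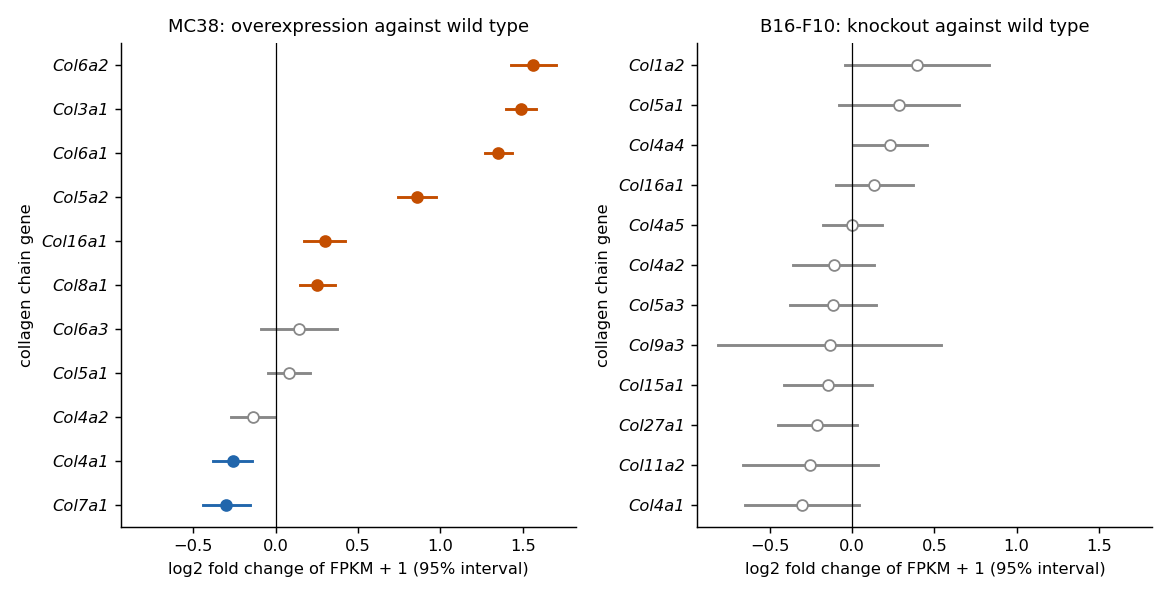
Log2 fold change of FPKM + 1 with its 95% interval for each tested chain in MC38 (left, 11 chains) and B16-F10 (right, 12 chains), with filled points for an adjusted p under 0.05. In MC38 the filled points run from -0.30 to 1.57, and in B16-F10 all points are open, from -0.30 to 0.40.

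The intervals were wide for several chains. The highest log2 fold change was that of Col1a2, at 3.56, 3.80, 2.60 and 2.36 FPKM in wild type and 4.67, 5.18, 5.43 and 2.52 FPKM in knockout. Knockout libraries 1 to 3 lay above every wild-type library and library 4 lay among them, for a log2 fold change of 0.40 (95% interval -0.04 to 0.83, adjusted p = 0.281). Without knockout library 4 it was 0.59 with an adjusted p of 0.0501. Col4a4, a type IV chain of the kidney filter, was at 1.24, 1.40, 0.857 and 1.03 FPKM in wild type and 1.68, 1.44, 1.58 and 1.27 FPKM in knockout (0.23, 95% interval 0.0095 to 0.45, unadjusted p = 0.0426 and adjusted p = 0.219 in limma). Its groups overlapped, as did those of the other 11 tested chains, where 13.9% of all genes tested had groups without overlap, 8.53% higher and 5.32% lower. Col4a5 was the least changed, at 4.00 ± 0.469 and 3.99 ± 0.26 FPKM (95% interval of the log2 fold change -0.18 to 0.18). Col16a1, the leading chain, was at 15.97 ± 2.19 and 17.6 ± 2.07 FPKM (0.14, 95% interval -0.10 to 0.37).

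For 11 of the 12 tested chains, all but Col27a1, wild-type libraries 1 and 2 both lay above or both below libraries 3 and 4. These are the same pairs as on the first principal component of all tested genes. The share of all tested genes split in this way was not computed, so the split is not shown to be particular to collagen chains. Col5a1 was at 2.92 and 3.31 FPKM in wild-type libraries 1 and 2, 5.76 and 5.04 FPKM in libraries 3 and 4, and 4.97 to 6.02 FPKM in the knockout libraries. Col4a1 was at 2.11 and 2.42 FPKM in libraries 1 and 2, 3.59 and 4.26 FPKM in libraries 3 and 4, and 2.08 to 2.47 FPKM in knockout. The knockout values lay near those of libraries 3 and 4 for Col5a1 and near those of libraries 1 and 2 for Col4a1. Col15a1 was at 7.91 and 8.81 FPKM, then 5.70 and 5.82 FPKM, with 5.92 to 6.46 FPKM in knockout. Col11a2 was at 3.06 and 3.34 FPKM, then 1.45 and 1.91 FPKM, with 1.59 to 2.43 FPKM in knockout. Col9a3 was at 1.96 and 3.23 FPKM, then 0.447 and 0.609 FPKM, with 0.921 to 1.35 FPKM in knockout, which lay between the pairs.

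The calls depended on which pair was kept. Without libraries 3 and 4, Col5a1 was higher in knockout (log2 fold change 0.60, adjusted p = 0.00789) and Col15a1 (-0.38, adjusted p = 0.0134), Col11a2 (-0.58, adjusted p = 0.0247) and Col9a3 (-0.74, adjusted p = 0.0196) were lower, 4 of 13 chains tested, where 12.4% of all genes passed. Without libraries 1 and 2, Col4a4 was higher (0.36, adjusted p = 0.0317) and Col4a1 (-0.60, adjusted p = 0.00252) and Col5a3 (-0.31, adjusted p = 0.0396) were lower, 3 of 11 chains tested, where 25.8% of all genes passed. No chain passed in both of these fits. The pairs were seen in the expression values and are not given by the labels, so these fits describe how far the result rests on the choice of libraries. Estimated depth was 48.3 and 46.1 M fragments in libraries 1 and 2, and 40.3 and 32.2 M in libraries 3 and 4, and the part of depth was not tested.

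**Figure D5:**
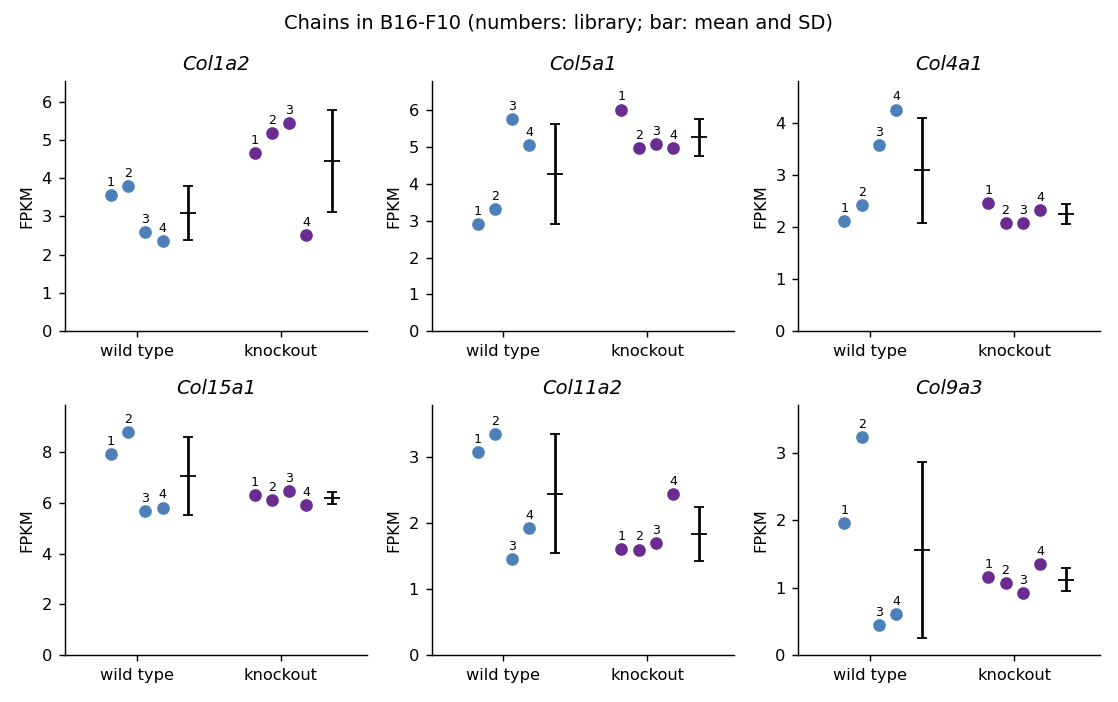
FPKM of 6 chains in B16-F10, with 1 point per library (numbered) and a bar for the mean and SD of wild type and knockout (n = 4 each). Wild-type libraries 1 and 2 lie apart from libraries 3 and 4 in all 6 panels, and knockout library 4 lies below the other knockout libraries for Col1a2.

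Low chains of B16-F10 did not enter the test. Col10a1, the hypertrophic cartilage network chain, was at 0.293, 0.287, 0.602 and 0.704 FPKM in wild type and 0.281, 0.245, 0.126 and 0.261 FPKM in knockout, without overlap. Col19a1, a fibril-associated chain, was at 0 in every wild-type library and at 0.0042, 0.0128, 0.0317 and 0.0383 FPKM in knockout. Col10a1 and Col19a1 were the only 2 of 26 untested chains above 0 in any library whose groups did not overlap, 1 higher and 1 lower, where 1.38% of all such untested genes were higher and 1.6% lower. Of the 9 chains at 0 in every wild-type library, 6 were also at 0 in every knockout library, Col5a2 and Col6a2 among them, and 2 (Col22a1 and Col6a6) were above 0 in 1 knockout library, at no more than 0.0062 FPKM. Col3a1 was at 0 in all 4 knockout libraries. The ratio of Col4a2 to Col4a1 was 0.953 to 1.24 in wild type and 1.24 to 1.41 in knockout, ranges that overlapped, and at most 0.732 in every MC38 library.

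Among the collagen partner genes 34 were tested in B16-F10, 1 was higher and 0 were lower, a share of 2.94% called, close to the 2.23% over all genes tested. P3h3, a member of the prolyl 3-hydroxylase family, rose from 27.4 ± 0.747 to 34.6 ± 1.52 FPKM (log2 fold change 0.33, adjusted p = 0.0175), and no longer passed without knockout library 1, 2 or 3 (adjusted p of 0.0718 to 0.0837). It passed without wild-type libraries 3 and 4 (0.0126) and without 1 and 2 (0.00255). In the other lists Sparc was at 454 ± 17.1 and 528 ± 16.9 FPKM (0.22, adjusted p = 0.0549), Loxl3 at 39.3 ± 8.94 and 40.8 ± 2.53 FPKM, Itgb1, the beta subunit of collagen-binding integrins, at 143 ± 4.33 and 141 ± 5.27 FPKM, and Mmp14, a membrane-bound collagenase, at 85.2 ± 5.64 and 100 ± 4.28 FPKM (0.24, adjusted p = 0.0629). Sparc passed in limma without wild-type libraries 3 and 4 (adjusted p = 0.046) and without 1 and 2 (adjusted p = 0.00622), with 0.0437 to 0.172 when 1 library was left out. Mmp14 (adjusted p = 0.00365) and Loxl3 (adjusted p = 0.00581) passed without libraries 1 and 2 but not without 3 and 4. In these fits 4 of 33 partner genes were higher and 1 lower without libraries 3 and 4, and 9 of 34 higher and 4 lower without 1 and 2, where 12.4% and 25.8% of all genes passed. The summed level of the 9 fibroblast and pericyte markers was 2.83 to 4.19 FPKM in wild type and 4.75 to 5.53 FPKM in knockout, with Thy1 and Acta2 at 0 in every library. Pdgfrb, a pericyte receptor, went from a mean of 1.76 to 3.25 FPKM, while Pdgfra was at 0.508 and 0.486 FPKM and Cspg4 at 1.22 and 1.33 FPKM, and the means of Dcn, Lum, Fap and Rgs5 were lower in knockout and below 0.05 FPKM in both groups. The part of these markers in the collagen values was not tested. The comparisons of overexpression in MC38 and of knockout in B16-F10 were fitted on separate tables, and the difference between them was not tested.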

How the data were processed

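Per the labels' protocols, polyadenylated RNA was sequenced with a stranded kit. The authors deposited their FPKM values in 1 table for each line, by gene symbol. GRCm39 and DESeq2 appear as build and tool in the submitters' processing notes. Aligner, counter and annotation: not given in the sources used here. All 15 columns were matched to samples by their labels, and 0 were left unmatched.

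FPKM was tested as log2(FPKM + 1) with limma 3.58.1 (R 4.3.3) with its variance prior following mean expression, for genes that averaged at least 1 FPKM in the line. Each line was fitted alone, p-values were adjusted by Benjamini-Hochberg over all genes tested, and the threshold was 0.05. Fold changes on this scale understate those of low genes. The code was tested on simulated data. Depth was estimated from the steps of low FPKM values, using lengths of single-transcript genes of GENCODE M21, an annotation of an earlier assembly. Between 83.7 and 87.9% of such values came to within 0.1 of a whole fragment, too few for count models. All replicate pairs differed beyond sampling noise (chi-square per gene 5.92 to 50.5), and each library counted as a sample.

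The collagen genes, the partner and marker lists and the alternatives were chosen with earlier results of these data known. Named are Ssbp4, chains above a mean of 1 FPKM in any group, and per partner list and line up to 3 called genes in each direction, or the 2 most abundant where none was called. Other genes named with values were chosen after their values were seen. Replicate numbers did not pair libraries. Promoter windows came from RefSeq and matched 35 of 44 genes. Alternatives changed the pseudocount, filter, scaling, variance model, library weights and block, and left out libraries. Figures were drawn with matplotlib 3.10.9.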

Additional observations from a re-analysis of the deposited data

Results flagged for a closer look

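Of 61 groups of 4 libraries examined for Ssbp4, the chains and the named partner genes, 3 held a library far from the others, where chance gives about 1 in 20. Ssbp4 was lowest in wild-type MC38 library 1 at 13.2 FPKM, with the other wild-type libraries at 17.04 to 17.6 FPKM. Col11a2 was highest in B16-F10 knockout library 4 at 2.43 FPKM, with the other knockout libraries at 1.59 to 1.69 FPKM. Col5a1 was highest in B16-F10 knockout library 1 at 6.02 FPKM, with the other knockout libraries at 4.97 to 5.07 FPKM. The 2 chains did not pass the test of knockout against wild type with or without these libraries.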

How the results depend on the processing

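In MC38 the count of higher chains was 13 with no filter and 6 or 8 otherwise, and lower partner genes numbered 3 with the replicate block and 3 to 6 without 1 library. In B16-F10 called genes numbered 140 with a filter of 0.1 FPKM, 73 with no filter, 776 with library weights, 12 with the replicate block and 23 to 414 without 1 library. They numbered 1349 without wild-type libraries 3 and 4 (1 chain higher, 3 lower) and 2805 without 1 and 2 (1 higher, 2 lower). With a common total 226 were higher and 83 lower, with median-of-ratios factors 84 and 112, against 145 and 98. Higher partner genes numbered 3 with a common total, 4 with weights, 0 with the block, 0 to 3 without 1 library, and 4 and 9 without libraries 3 and 4 or 1 and 2. Lower ones numbered 1 with weights, 0 to 1 without 1 library, and 1 and 4 without these pairs. Replicate numbers did not pair libraries, since same-numbered deviations correlated at -0.29 to -0.07 in MC38 and -0.30 to 0.17 in B16-F10. The sign turned for uncalled B16-F10 genes. Without libraries 1 and 2 the log2 fold change was 0.072 for Col11a2, 0.090 for Col15a1, -0.034 for Col5a1 and -0.11 for Col4a5. Without 3 and 4 it was -0.011 for Col16a1, 0.059 for Col4a2, 0.079 for Col5a3, -0.19 for Loxl3 and 0.00082 for Itgb1. Col4a5 was at -0.015 with median-of-ratios factors and Loxl3 at -0.029 with weights. Without 1 library Col4a5 ranged from -0.049 to 0.051, Col9a3 from -0.36 to 0.15, Loxl3 from -0.032 to 0.19 and Itgb1 from -0.043 to 0.0030. Counting only genes with at least 1 FPKM in both groups, chosen after seeing the data, changed no count of chains. Of the alternatives for named genes 691 kept direction and side of the threshold, 15 lost a call, 16 gained one and 19 turned sign, and the cause was not tested. Depth limits chains below 1 FPKM.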
